A study of Mus musculus with 8 samples.

Results

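Homeobox genes encode transcription factors that bind DNA through a homeodomain. The genes described here are 56 homeobox genes outside the *Hox*, *Dlx* and *Msx* families, taken from the table by their gene names. The expression table listed 49 of them among its 20926 genes, and *Emx2*, *Irx4*, *Lhx1*, *Lmx1b*, *Otx1*, *Pax1* and *Pax7* were not analysed here. The 49 genes comprised 15 TALE genes, 10 PRD and Pax genes, 8 ANTP and NKL genes, 7 zinc finger homeobox genes, 5 LIM genes, 3 SINE genes and the PROS gene *Prox1*.

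RNA was sequenced from the mesenchyme of mouse molars at postnatal day 3, after the epithelium had been taken off. There were 4 libraries from Ezh2fl/fl mice (control) and 4 from Osr2KI-Cre;Ezh2fl/fl mice, all labelled C57BL/6. The methods give a mixed background for all mice of the study. Both groups carry the floxed *Ezh2* alleles, and only the Osr2KI-Cre;Ezh2fl/fl mice carry the Cre knocked in at *Osr2*. The comparison asks which genes differ when *Ezh2* is recombined in the dental mesenchyme and alveolar bone, where *Osr2*-driven Cre is active. Because the controls have no Cre, the Cre knock-in and the loss of *Ezh2* cannot be told apart. Nothing in the labels or methods says whether a library is 1 mouse, so the p-values measure the spread between these samples. In bulk tissue, fewer cells of a type and less RNA per cell cannot be told apart either.

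EZH2 is the catalytic subunit of Polycomb repressive complex 2, which trimethylates lysine 27 of histone H3. Polycomb complexes keep many genes for developmental regulators silent in tissues where they are not used, and homeobox genes are a well-known group among their targets. In the jaw, homeobox genes help to give neural crest mesenchyme its position. *Barx1* marks the molar region, *Lhx6* and *Lhx8* the oral mesenchyme that forms teeth, *Pitx1* the lower jaw, and *Alx* genes the face midline. TALE proteins (*Pbx*, *Meis* and *Pknox* genes) act largely as partners of Hox and other homeodomain proteins.

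Values are the deposited normalized values, which are scaled for library depth but not for gene length. In each library the smallest value stands for 1 read added to every gene, so reads could be estimated by dividing by it and subtracting 1. Each log2 fold change is the mean log2(value + 1) in Osr2KI-Cre;Ezh2fl/fl less that in control, tested with limma across all genes with the Benjamini-Hochberg adjustment. The added 1 shrinks the fold change of weakly expressed genes. The libraries held 48313040 to 68793594 estimated reads. All 10 dental mesenchyme markers were present in every library, with a summed value of 16029 to 19467 in controls and 14072 to 16782 in Osr2KI-Cre;Ezh2fl/fl. *Ezh2* had values of 55.0, 38.3, 39.6 and 39.0 in controls and of 35.2, 30.1, 23.2 and 36.0 in Osr2KI-Cre;Ezh2fl/fl, so the groups did not overlap (log2 fold change −0.46, SE 0.16, adjusted p = 0.235). That value covers the whole gene and not the floxed part alone.

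Among the genes tested, 6 of the 38 homeobox genes that passed the filter rose in Osr2KI-Cre;Ezh2fl/fl, and 0 fell. The filter asked for 4 or more libraries with a value of 1 or higher, and 0 of the 38 passed it through 1 group alone. The 6 were *Lhx8*, *Gsc*, *Shox2*, *Six2*, *Prrx2* and *Pbx3*. Over all 14854 genes tested, 1.56% rose and 0.512% fell. At an unadjusted p under 0.05, limma gave 13 homeobox genes higher (34.2%) and 3 lower (7.89%), beside 8.27% and 4.87% of all genes tested. Without the filter, all 49 were tested beside the whole table, and 7 were past the threshold as higher and 0 as lower, beside 1.22% and 0.339% of all genes. The added gene was *Vax2*, which was near 0 in every control library. It had under 10 estimated reads in each control and was listed in the table through its Osr2KI-Cre;Ezh2fl/fl reads alone, so its direction was set by being listed, and its call is no independent result. At the unadjusted threshold 15 of the 47 genes other than *Vax2* and *Lhx9*, for which the same holds, were higher (31.9%) and 4 lower (8.51%), beside 7.96% and 4.51% of all genes. Genes listed in the same way were not left out of these shares of all genes, so the sets compared are unlike. The log2 fold change was positive for 28 of the 38 (73.7%), with a median of 0.15, against 54.1% and 0.01 for all genes tested.

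The stretches of DNA just upstream of 5 of these genes are given to show how unlike each other they are in CG dinucleotides. The first 4 belong to genes that rose, and *Barx1* is the homeobox gene with the highest level in control. They are RefSeq sequences of build GRCm38.p6, read 5′ to 3′ on the strand of the gene and ending where the gene starts, with every CG in capitals. *Vax2* and *Pbx3* have no entry in the promoter table used.
Lhx8 (chr3:154330660-154330810, minus strand): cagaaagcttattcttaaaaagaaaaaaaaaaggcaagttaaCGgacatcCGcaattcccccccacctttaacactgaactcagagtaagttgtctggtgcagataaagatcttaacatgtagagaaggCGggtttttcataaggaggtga
Gsc (chr12:104473331-104473486, minus strand): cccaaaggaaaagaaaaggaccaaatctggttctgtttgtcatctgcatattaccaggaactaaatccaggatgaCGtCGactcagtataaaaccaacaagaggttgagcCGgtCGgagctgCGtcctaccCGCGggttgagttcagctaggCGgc
Shox2 (chr3:66981772-66982021, minus strand): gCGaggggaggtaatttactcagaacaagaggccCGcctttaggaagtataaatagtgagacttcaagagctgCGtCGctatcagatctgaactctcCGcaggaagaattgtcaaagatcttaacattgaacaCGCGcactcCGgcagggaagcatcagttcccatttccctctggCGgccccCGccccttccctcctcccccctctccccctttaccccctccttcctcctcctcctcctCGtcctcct
Six2 (chr17:85688275-85688504, minus strand): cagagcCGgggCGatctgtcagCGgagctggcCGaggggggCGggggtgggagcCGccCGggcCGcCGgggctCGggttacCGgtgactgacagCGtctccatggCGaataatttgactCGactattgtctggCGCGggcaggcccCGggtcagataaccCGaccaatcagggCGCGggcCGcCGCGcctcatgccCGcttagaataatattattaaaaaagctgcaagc
Barx1 (chr13:48662786-48662997, plus strand): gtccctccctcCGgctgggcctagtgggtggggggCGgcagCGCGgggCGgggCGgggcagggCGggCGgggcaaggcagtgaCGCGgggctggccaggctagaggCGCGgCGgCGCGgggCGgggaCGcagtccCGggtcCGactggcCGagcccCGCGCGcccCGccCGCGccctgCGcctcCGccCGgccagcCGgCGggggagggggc

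The printed *Lhx8* stretch held 3 CG in 151 bases and the *Gsc* stretch 8 in 156. *Shox2* held 11 in 250 bases, *Six2* 24 in 230 and *Barx1* 31 in 212. These stretches differ in length. In the full 250 upstream bases *Lhx8* held 4 CG, *Shox2* 11, *Gsc* 22, *Six2* 26 and *Barx1* 40. *Prrx2*, which also rose and is not printed, held 21. The 4 printed genes that rose thus differed among themselves as widely as *Lhx8* from *Six2*. In the full 250 upstream bases of the 32 homeobox genes with a RefSeq entry, 24 (75%) held at least 10 CG, against 66.9% of the protein-coding genes of the table with an entry and 37.7% of all promoters. The homeodomain core motif TAATTA, which reads the same on both strands, was found upstream of 1 of the 32 genes (3.13%), *Prrx1*, of 2.74% of the protein-coding genes of the table with an entry and of 4.98% of all promoters. A match of letters is a description of the window and not a binding site.

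In control mesenchyme the homeobox genes ranged from among the most abundant transcripts to nearly undetected. Levels were compared between genes as values per kilobase of exon. *Barx1* stood highest at 136 per kb, above 98.8% of all genes in the table. It was followed by *Irx5* at 31.8, *Pitx1* at 31.6, *Pbx2* at 16.2, *Prrx2* at 13.7, *Irx3* and *Tshz1* at 13.3 each and *Six5* at 10.9 per kb. These 8 genes lay above the 75th percentile of all genes and are called high. Another 11 had a mean control value under 1 and are called near zero, namely *Pbx4*, *En1*, *Lhx2*, *Isl1*, *Nkx3-2*, *Meis2*, *Vax2*, *Pax3*, *Alx1*, *Pax6* and *Lhx9*. The other 30 are called intermediate. At the upper edge, *Six5* lay at the 79.6th percentile per kb and *Lhx6*, just outside, at the 74.4th. At the lower edge, *Pbx4* had a mean control value of 0.974, and *Meox2*, barely outside it, 1.0001.

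**Figure D1:**
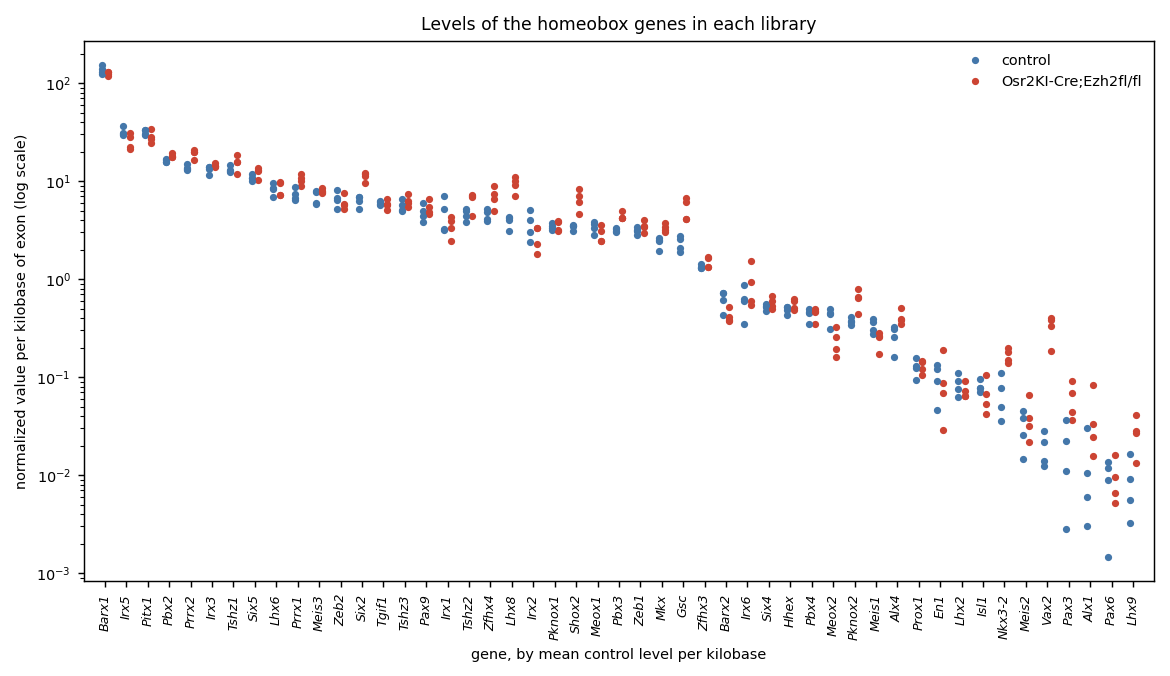
Normalized value per kilobase of exon (log scale) of each of the 49 homeobox genes in each of the 4 control (blue) and 4 Osr2KI-Cre;Ezh2fl/fl (red) libraries, ordered by mean control level. *Barx1* stands highest at 136 per kb, and the blue and red *Vax2* points lie far apart near the low end.

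Because these groups were made from the control values, which are part of the contrast, their changes are given as a description. Without the filter, 1 of the 8 high genes rose (*Prrx2*), against 0.796% of all 5022 genes high in control. Among the 30 intermediate genes 5 rose, against 1.4% of 9752. Of the 11 near-zero genes 1 was past the threshold (*Vax2*), beside 1.28% of 6152, but nothing is read from that count, since *Vax2* was listed only through its Osr2KI-Cre;Ezh2fl/fl reads. The median log2 ratio of group means was 0.15 for the high, 0.16 for the intermediate and 0.34 for the near-zero homeobox genes, beside 0.00, 0.02 and 0.13 for all genes of the same level. With the classes set by the mean over all 8 libraries instead, *Meox2* joined the near-zero class (12 genes). The medians of the high and near-zero homeobox genes were then 0.18 and 0.21. With near zero set at a mean control value under 0.5, its median was 0.81. With high set by the value itself, the high median was 0.023. The gap between these classes thus depended on how they were set, including the use of the control values. It also rested on *Vax2* and *Lhx9*: without the genes under 10 estimated reads in every control library, the near-zero median was 0.07 for the other 9 homeobox genes and 0.08 for all near-zero genes. Of the 6 genes that rose with the filter, 5 were intermediate in control.

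**Figure D2:**
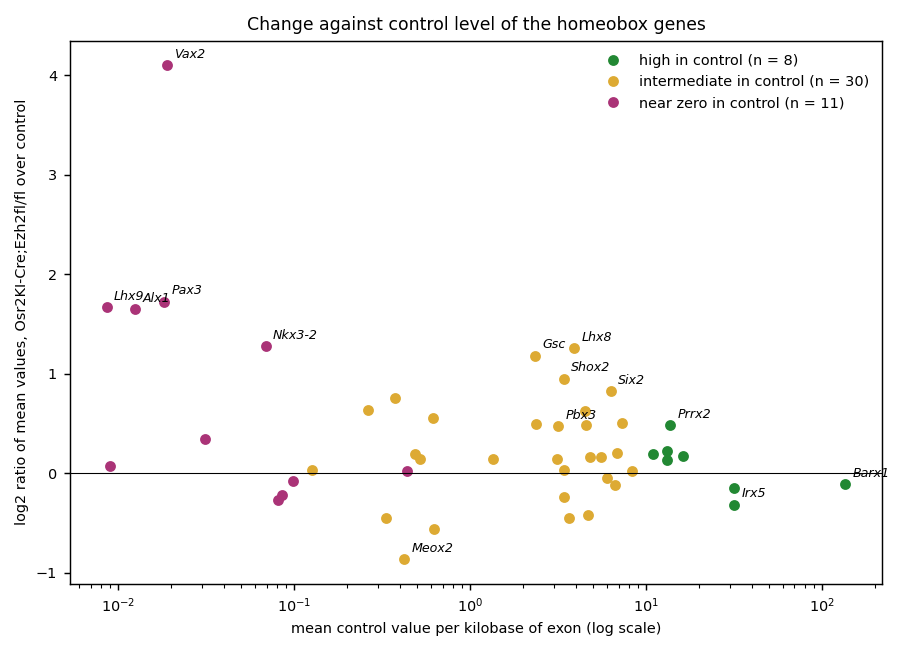
Log2 ratio of the mean values, Osr2KI-Cre;Ezh2fl/fl over control, against the mean control value per kilobase of exon (log scale) for the 49 homeobox genes, coloured by control class. The 8 high genes lie between −0.31 (*Irx5*) and 0.49 (*Prrx2*), while *Vax2*, near zero in control, has the largest ratio.

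*Lhx8*, a LIM homeobox gene of the tooth-forming mesenchyme, showed the largest log2 fold change of the 38 homeobox genes that passed the filter. It lies at chr3:154306294-154330659 on the minus strand. Its values were 10.9, 10.6, 10.1 and 7.94 in controls and 18.0, 22.9, 28.1 and 25.4 in Osr2KI-Cre;Ezh2fl/fl. Every Osr2KI-Cre;Ezh2fl/fl library thus lay above every control. The mean rose from 9.87 ± 1.34 to 23.6 ± 4.28 (SD, n = 4 each), a log2 fold change of 1.17 (SE 0.14, limma adjusted p = 0.00509). The call held when any of the 8 libraries was left out, with an adjusted p of at most 0.0219. Its level per kb moved from the 58.3th to the 76.6th percentile of all genes, past that of *Lhx6*, at the 74.7th.

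*Lhx6*, which acts beside *Lhx8* in the oral mesenchyme, had values of 46.6, 40.4, 41.2 and 33.0 in controls and 34.8, 47.7, 34.8 and 46.4 in Osr2KI-Cre;Ezh2fl/fl. The groups overlapped over their whole range, and the log2 fold change was 0.02 (95% interval −0.29 to 0.33). The other LIM genes of the table were near zero in control. *Isl1* and *Lhx2*, which act in limb, heart and nervous system, had means of 0.320 and 0.373 in controls and of 0.266 and 0.321 in Osr2KI-Cre;Ezh2fl/fl. *Lhx9*, a gene of the gonad and brain, had 4, 3, 8 and 1 estimated reads in controls and 13, 16, 8 and 29 in Osr2KI-Cre;Ezh2fl/fl. Its groups met at 8 reads.

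A transcript next to *Lhx8* differed alongside it. *AI606473*, a processed transcript on the opposite strand at chr3:154330821-154334254, begins 161 bases from the start of *Lhx8*, and the printed *Lhx8* stretch fills most of that gap. Its values were 5.44, 4.99, 4.69 and 4.45 in controls and 9.31, 11.7, 12.3 and 12.4 in Osr2KI-Cre;Ezh2fl/fl, without overlap. The log2 fold change was 1.07 (SE 0.11, limma adjusted p = 0.00217). Of the 40 genes of the table that overlap a homeobox gene or lie within 10000 bases of one, it was the 1 that passed the test. Strand use in the counting is not stated in the sources used here. *Lhx8*, *Gsc*, *Six2* and *Prrx2* overlap no other annotated gene, whereas *Shox2* overlaps *Rsrc1* on the opposite strand, *Pbx3* overlaps the antisense gene *C79798* and *Vax2* overlaps the antisense gene *Vax2os*. Reads of those overlapping pairs may not be separable.

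The PRD and Pax class held 3 of the 6 genes that rose, out of 7 tested, beside 1.56% of all genes tested. *Gsc*, a gene of the jaw, ear and early embryo, was low in control, with values of 2.41, 3.27, 3.49 and 2.66. In Osr2KI-Cre;Ezh2fl/fl it had 7.85, 5.19, 5.22 and 8.60. The lowest of these was above the highest control, and the mean rose from 2.96 ± 0.505 to 6.71 ± 1.77 (SD, n = 4 each). The difference was 0.94 on the log2 scale (SE 0.17, limma adjusted p = 0.0235). *Shox2*, which acts in limb, palate and heart, had 10.3, 11.8, 11.5 and 11.5 in controls, a very narrow spread, and 15.5, 20.4, 27.9 and 23.5 in Osr2KI-Cre;Ezh2fl/fl. The means were 11.3 ± 0.638 and 21.8 ± 5.22, and the log2 fold change was 0.87 (SE 0.15, adjusted p = 0.0228). Both calls depended on which library was left out, while the log2 fold changes stayed at 0.83 to 1.04 (*Gsc*) and 0.74 to 1.01 (*Shox2*). *Gsc* lost its call when any control library or Osr2KI-Cre;Ezh2fl/fl library 4 was left out (adjusted p 0.0561 to 0.0739), and *Shox2* when any control or Osr2KI-Cre;Ezh2fl/fl library 2 or 4 was left out (0.0544 to 0.0805).

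*Prrx1* and *Prrx2* are paralogs of limb and face mesenchyme. *Prrx2* was high in control, with 26.7, 29.3, 26.1 and 25.7, and had 38.6, 39.4, 32.4 and 40.7 in Osr2KI-Cre;Ezh2fl/fl. The groups did not overlap, and it rose by a log2 fold change of 0.47 (SE 0.09, limma adjusted p = 0.0265). This call, too, was lost without any control library or without Osr2KI-Cre;Ezh2fl/fl library 2 or 4 (adjusted p 0.0556 to 0.115). *Prrx1* had 70.9, 95.6, 81.7 and 75.3 in controls and 97.8, 130, 118 and 112 in Osr2KI-Cre;Ezh2fl/fl. Its groups lay apart by a small margin, and its log2 fold change was of the same size, 0.50 (SE 0.11), but its adjusted p of 0.0599 missed the threshold. It passed when control library 2 (0.0468) or Osr2KI-Cre;Ezh2fl/fl library 1 (0.0334) was left out. *Alx4*, a gene of the face midline, had 1.13, 2.17, 2.30 and 1.84 in controls and 2.73, 2.76, 3.61 and 2.49 in Osr2KI-Cre;Ezh2fl/fl, without overlap (log2 fold change 0.46, adjusted p = 0.215).

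Other genes of this class that are known from tooth development did not pass the test. *Pax9*, needed in the mesenchyme of the tooth bud, had 29.9, 22.5, 25.1 and 19.4 in controls and 23.1, 33.0, 24.5 and 27.9 in Osr2KI-Cre;Ezh2fl/fl (log2 fold change 0.16, 95% interval −0.17 to 0.49). *Pitx1* was high in control, with 78.7, 80.6, 88.3 and 88.1, against 91.2, 64.8, 71.9 and 74.9. Both genes overlapped between the groups, and *Pitx1* had its highest value of all in Osr2KI-Cre;Ezh2fl/fl library 1. Their adjusted p-values were 0.767 and 0.616.

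*Six2*, a SINE gene best known for keeping kidney progenitors undifferentiated, had 11.0, 14.6, 13.4 and 14.8 in controls and 24.1, 25.0, 20.3 and 26.0 in Osr2KI-Cre;Ezh2fl/fl. The groups did not overlap. Its mean rose from 13.4 ± 1.74 to 23.8 ± 2.5 (SD, n = 4 each), a log2 fold change of 0.79 (SE 0.11, limma adjusted p = 0.00905). Leaving out any library kept the call (adjusted p at most 0.0422). *Six4* and *Six5*, of the same class, had log2 fold changes of 0.11 and 0.18, with adjusted p of 0.773 and 0.521.

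**Figure D3:**
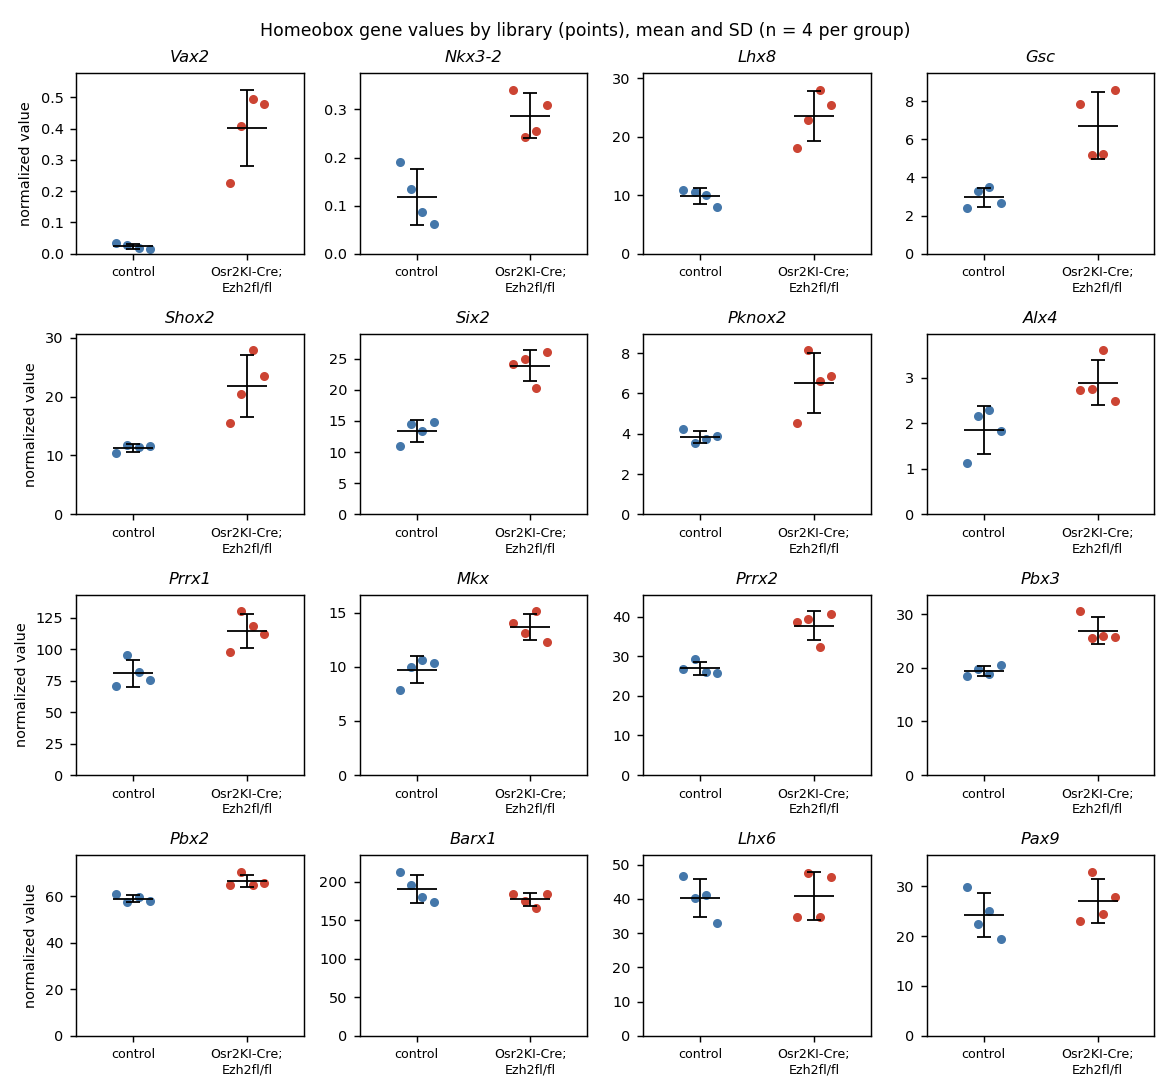
Normalized value in each library (points; control blue, Osr2KI-Cre;Ezh2fl/fl red) with the mean and SD (n = 4 per group) for the 13 homeobox genes whose groups did not overlap, and for *Barx1*, *Lhx6* and *Pax9*. Each vertical axis starts at 0 and has its own range, and all 13 genes are higher in Osr2KI-Cre;Ezh2fl/fl.

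In the TALE class 1 gene of 14 tested rose, beside the same 1.56%. *Pbx3*, a homeodomain partner gene, had 18.5, 19.7, 18.9 and 20.6 in controls and 30.6, 25.5, 26.0 and 25.7 in Osr2KI-Cre;Ezh2fl/fl. The groups lay apart, with library 1 well above the other Osr2KI-Cre;Ezh2fl/fl libraries. The log2 fold change was 0.45 (SE 0.08, limma adjusted p = 0.0242), and the call was lost without any control library or without Osr2KI-Cre;Ezh2fl/fl library 4 (adjusted p 0.0533 to 0.112). *Pbx2*, which was high in control, had 60.8, 57.6, 59.6 and 57.7 against 64.8, 70.5, 64.9 and 65.5, a small difference with no overlap (log2 fold change 0.17, SE 0.06, adjusted p = 0.229). *Pbx4* was near the lower edge in both groups, with means of 0.974 and 0.991.

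*Mkx*, which is needed in tendon, had 7.90, 9.95, 10.7 and 10.4 in controls and 14.0, 13.1, 15.2 and 12.3 in Osr2KI-Cre;Ezh2fl/fl. *Pknox2*, a partner gene related to *Meis*, had 4.26, 3.54, 3.75 and 3.88 against 4.53, 8.14, 6.61 and 6.87. For both genes every Osr2KI-Cre;Ezh2fl/fl library was above every control, and for *Pknox2* library 1 was only just so. Their log2 fold changes were 0.46 and 0.61, each with a limma adjusted p of 0.0773. *Pknox2* passed without Osr2KI-Cre;Ezh2fl/fl library 1 (0.0107). Among the *Meis* genes, *Meis1* had a log2 fold change of −0.34 (adjusted p = 0.328), *Meis3* 0.21 (0.493) and *Meis2*, near zero in control, 0.10 without the filter (0.836). *Pknox1* and *Tgif1* had 0.02 and −0.05.

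The *Irx* genes, which pattern heart, limb and nervous system and lie in clusters, did not pass the test in either direction. *Irx1* had 8.27, 8.58, 13.7 and 18.6 in controls and 10.3, 6.42, 11.3 and 8.70 in Osr2KI-Cre;Ezh2fl/fl. *Irx2* had 7.92, 9.94, 13.3 and 16.6 against 10.8, 5.87, 10.9 and 7.56. Both genes were highest in control library 4, then in control library 3 and then in Osr2KI-Cre;Ezh2fl/fl library 3. Those were also, in the same order, the libraries with the highest summed value of *Amelx*, *Ambn* and *Enam*, which enamel-forming epithelium makes. That sum was 726, 2298, 15516 and 28280 in controls and 1283, 829, 11280 and 675 in Osr2KI-Cre;Ezh2fl/fl.

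With the mean log2 level of the enamel transcripts as a covariate, the log2 fold change of *Irx1* was −0.02 in place of −0.34, and that of *Irx2* −0.10 in place of −0.39. *Irx5*, high in control with 96.1, 93.9, 93.5 and 115 against 88.7, 66.4, 96.1 and 69.3, had −0.20 in place of −0.32. *Irx3* was also high, with means of 36.6 and 40.2, and its log2 fold change was 0.08 in place of 0.13. For *Irx6* it was 0.70 in place of 0.35, with an adjusted p of 0.0569. The 6 genes called kept their calls with the covariate (adjusted p at most 0.0491, *Gsc*) and *Mkx* passed as well (0.57, adjusted p = 0.0150). The marker genes of epithelium other than enamel, 7 in all, summed to 2036 to 4524 in controls and 1924 to 2718 in Osr2KI-Cre;Ezh2fl/fl, and 0 of them passed the test. The part of remaining epithelium in the *Irx* values was not tested beyond this covariate.

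**Figure D4:**
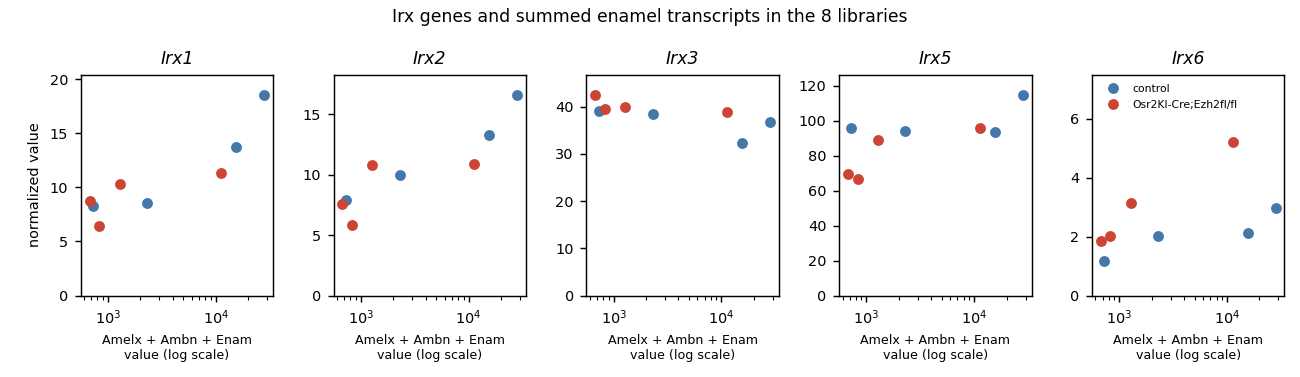
Normalized value of 5 *Irx* genes against the summed value of *Amelx*, *Ambn* and *Enam* (log scale) in the 8 libraries (control blue, Osr2KI-Cre;Ezh2fl/fl red). *Irx1* and *Irx2* are highest in the 3 libraries with the highest enamel sums, and *Irx3* stays between 32.3 and 42.6.

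Of the ANTP and NKL genes, *Barx1* had 213, 196, 180 and 173 in controls and 183, 175, 166 and 184 in Osr2KI-Cre;Ezh2fl/fl. The groups overlapped, the log2 fold change was −0.10 (95% interval −0.28 to 0.08), and its level per kb stood at the 98.8th and the 98.6th percentile. *Barx2*, *Meox1* and *Meox2*, the latter pair known from somites, had log2 fold changes of −0.27, −0.21 and −0.37. *Meox2* failed the filter, with means of 1.00 and 0.551, and its adjusted p without the filter was 0.126. For *Hhex*, a gene of liver and blood vessels, the log2 fold change was 0.14. The 7 zinc finger homeobox genes, among them the *Zeb* genes of epithelial-mesenchymal transition, had 0 calls. *Zfhx4* came nearest, with 81.6, 75.9, 65.3 and 62.1 in controls and 77.3, 142, 116 and 105 in Osr2KI-Cre;Ezh2fl/fl. Its library 1 lay among the controls and the other 3 above them (log2 fold change 0.60, limma adjusted p = 0.132). *Tshz2* showed the same arrangement, with 38.3, 40.2, 29.6 and 34.1 against 34.4, 56.5, 54.5 and 53.5 (0.46, adjusted p = 0.242), and both genes passed without Osr2KI-Cre;Ezh2fl/fl library 1 (0.0228 and 0.0225). *Tshz1*, *Tshz3*, *Zfhx3*, *Zeb1* and *Zeb2* had log2 fold changes between −0.12 and 0.20, and *Prox1*, of lymphatic vessels, had 0.02.

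**Figure D5:**
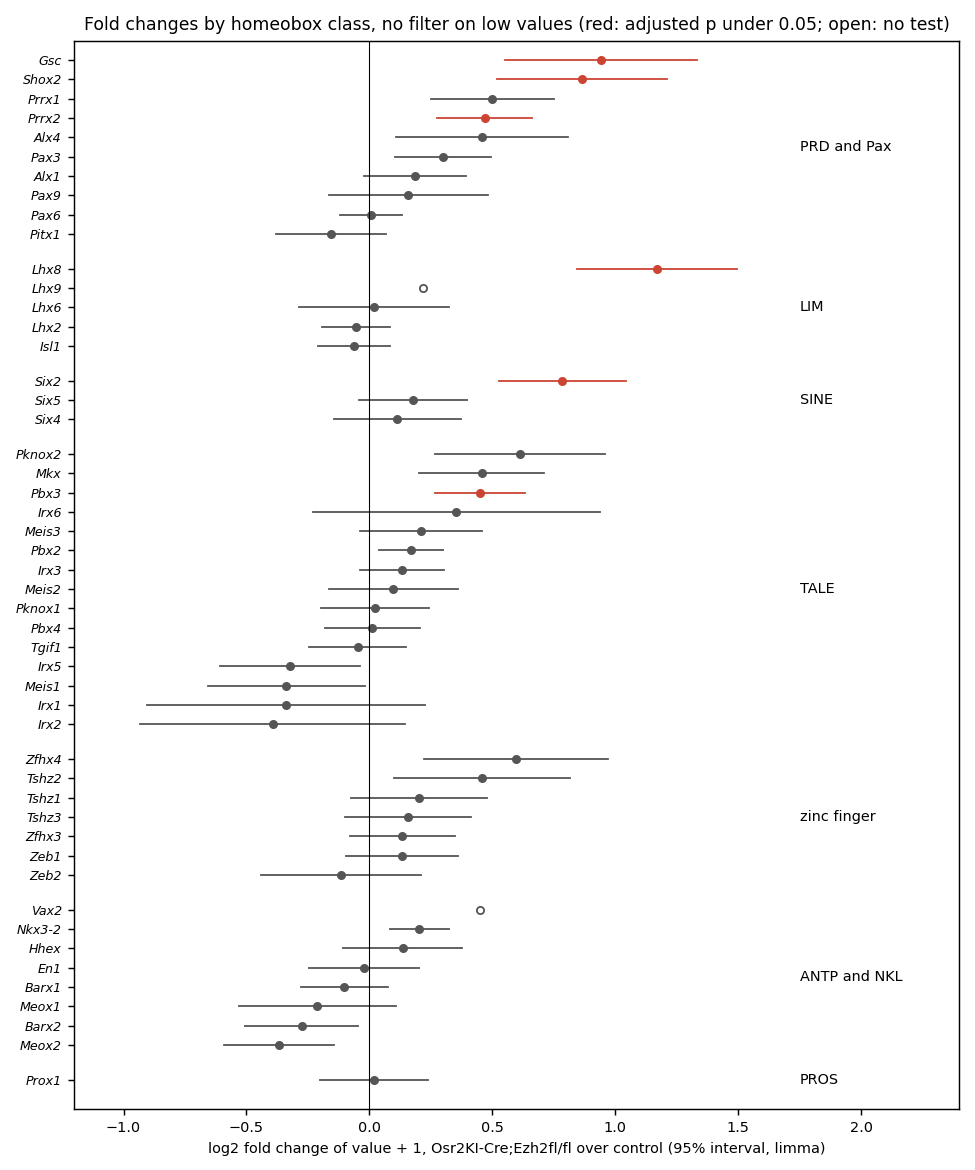
Log2 fold change of value + 1 (Osr2KI-Cre;Ezh2fl/fl over control, limma without a filter on low values) with 95% intervals for the 49 homeobox genes by class, with genes of adjusted p under 0.05 in red and *Vax2* and *Lhx9*, which are given no test, as open points without intervals. The 6 red points lie right of 0, from 0.45 for *Pbx3* to 1.17 for *Lhx8*.

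Near zero in control, *Vax2*, a gene of the ventral retina, stood apart. It lies at chr6:83711264-83738313 on the plus strand. Its estimated reads were 1, 1, 0 and 0 in controls and 11, 26, 34 and 36 in Osr2KI-Cre;Ezh2fl/fl, or 2 against 107 in all. The log2 fold change of value + 1 was 0.45 (SE 0.06, without the filter). Its value stayed under 0.5 in every library. Its level per kb moved from the 0.831th to the 22.9th percentile of all genes. Every gene of the table had at least 10 estimated reads in some library, and *Vax2* and *Lhx9* were the 2 near-zero homeobox genes that met this through Osr2KI-Cre;Ezh2fl/fl alone. Their values are therefore a description, with no test.

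*Nkx3-2*, a gene of cartilage and the jaw joint, had 10, 9, 4 and 3 estimated reads in controls and 17, 15, 17 and 23 in Osr2KI-Cre;Ezh2fl/fl. The groups did not overlap, with mean values of 0.118 and 0.287, and the adjusted p without the filter was 0.106. *Pax3*, of neural crest and muscle, had 0, 16, 3 and 8 reads against 11, 17, 39 and 32, and *Alx1*, of the face midline, 0, 12, 1 and 3 against 9, 5, 33 and 10. Both overlapped between groups (adjusted p 0.156 and 0.475). *Pax6*, of eye and brain, had mean values of 0.105 and 0.110, and *En1*, of limb ectoderm and midbrain, 0.258 and 0.245. Of the 11 genes, 0 reached a mean value of 1 in Osr2KI-Cre;Ezh2fl/fl. Their summed value was 2.57, 2.91, 3.06 and 2.71 in controls and 3.70, 3.09, 4.57 and 4.47 in Osr2KI-Cre;Ezh2fl/fl, just without overlap, and without *Vax2* the groups overlapped, at 2.54 to 3.04 and 2.68 to 4.07.

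In all, 13 of the 49 homeobox genes (26.5%) had groups that did not overlap and were higher in Osr2KI-Cre;Ezh2fl/fl, and 0 were lower, beside 5.55% and 2.65% of all genes in the table. Groups that do not overlap always give the smallest p that an exact permutation test allows with 4 against 4 libraries, 0.0286 (two-sided), so this p adds nothing to the count. The 13 were the 6 genes called with the filter, *Prrx1*, *Mkx*, *Pknox2*, *Pbx2*, *Alx4*, *Nkx3-2* and *Vax2*. Without *Lhx9*, *Pax6* and *Vax2*, each under 10 estimated reads in every library of 1 group, 12 of 46 were higher (26.1%), beside 5.38% of the 19784 genes left when the same rule was used on the table. Of 5 cartilage markers in the table *Col2a1*, *Acan* and *Col9a1* rose, and the summed value of the 5 was 72.8 to 89.6 in controls and 107 to 151 in Osr2KI-Cre;Ezh2fl/fl. Among 6 bone markers *Ibsp* rose, from a mean of 114 to 416, and the 6 summed to 1230 to 1394 and 1466 to 1913. The other 5 bone markers did not pass the test, with log2 fold changes from −0.98 (*Phex*) to 0.14 (*Alpl*), and the median of the 6 was −0.17. Of the 6 Schwann cell markers *Erbb3* fell, and 0 of the markers of muscle, neurons, vessels, macrophages and red blood cells passed. The part of the cartilage and bone transcripts in the homeobox values was not tested.

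Homeobox genes of the same kind that were not among the 56 were looked at in the same fit. Of 118 further genes named, 41 were in the table and 26 passed the filter, and 0 fell (1 was lower at an unadjusted p under 0.05, limma). *Pou3f3*, a POU gene of brain and kidney, had 1.11, 1.86, 1.65 and 1.82 in controls and 2.79, 3.29, 3.35 and 4.14 in Osr2KI-Cre;Ezh2fl/fl, without overlap, and rose (log2 fold change 0.75, SE 0.13, limma adjusted p = 0.0221). That call was lost without control library 2 or 3 or without Osr2KI-Cre;Ezh2fl/fl library 2, 3 or 4, with an adjusted p of at most 0.0794. The median log2 fold change of the 26 was 0.00, with 14 positive.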

How the data were processed

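Per the labels and methods, the authors isolated RNA from molar mesenchyme, sequenced single-end reads and mapped them to mm10. The methods name TopHat and RPKM, and the submitters' processing notes name CASAVA 1.8.2, STAR 2.5.3a and Partek. The deposited values were used as a normalized signal: they carry no gene-length factor, share an upper quartile of 38.5 in every library, and include 1 added read. Only 65.5% of low values (under 20 units of 1 read, within 0.05) were whole multiples, so reads are estimates, and no count test was the main one.

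Groups came from the labels. limma 3.58.1 (R 4.3.3, eBayes with trend) was fitted to log2(value + 1) for the 14854 genes that reached 1 in 4 or more of the 8 libraries, and for all 20926 genes, and adjusted p under 0.05 was the threshold. The scripts were tested on simulated data. Exact permutation tests ran over 70 arrangements. Exon lengths came from GENCODE release 21 (96.0% of genes matched) and upstream sequences from RefSeq (GRCm38.p6). The table was filtered by the authors, since its lowest maximum over 8 libraries was 10 estimated reads. Genes described with values were those with an adjusted p under 0.05 or non-overlapping groups, the genes high or near zero in control, *Ezh2*, other homeobox genes that passed the test, and neighbours within 10000 bases that did. Not every such homeobox gene is reported here. Members and gene lists were chosen with earlier results of these data known. A few further genes are named after their values were seen. Alternatives were other pseudocounts, filters, scalings, limma settings, voom, a replicate block, an enamel covariate and leaving out each library.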

Additional observations from a re-analysis of the deposited data

Results flagged for a closer look

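In 4 of 98 groups of 4 libraries, 1 library stood far from the other 3 (Dixon's test at the 95% level), where chance would give about 4.9. For *Irx5*, control library 4 had a value of 114.9 and its 3 companions 93.5 to 96.1. *Pbx2* was 70.5 in Osr2KI-Cre;Ezh2fl/fl library 2, against 64.8 to 65.5 in the others of its group. *Pbx3*, 1 of the genes that rose, was 30.6 in Osr2KI-Cre;Ezh2fl/fl library 1, against 25.5 to 26.0, and its call held without that library (adjusted p = 0.0272, limma). *Tshz2* was 34.4 in the same library, against 53.5 to 56.5.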

How the results depend on the processing

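The number of homeobox genes that rose was 6, and 5 to 7 under other pseudocounts, filters and scalings, without the trend and with the enamel covariate. With array weights it was 16, and 6 genes fell in place of 0. The labels do not say whether the replicate numbers pair the samples, and the methods mention 3 pairs in sequencing without naming them. Deviations of same-numbered libraries correlated at −0.34, −0.08, 0.22 and −0.43. Taken over all genes, they also carry differences such as the enamel transcripts, so they cannot decide whether the samples are paired. With the replicate block, 1 gene rose with the filter and 0 without it. Leaving out 1 library gave 2 to 10 genes with the filter and 3 to 9 without it (7 with all libraries), the highest without Osr2KI-Cre;Ezh2fl/fl library 1, and 0 fell in any. Fewer samples were fitted in each. None of these counts under other settings has the share of all genes called beside it. Nothing is therefore read from them about the homeobox genes as a set. *Lhx8* and *Six2* kept their calls without any 1 library, with the filter and without it. The median log2 ratio of the near-zero genes was 0.34, 0.81 with near zero set at a mean under 0.5, 0.21 with classes set by the mean over all 8 libraries, 0.07 without genes under 10 reads in every control library and 0.18 without those under 10 in every library of 1 group (both chosen after seeing the data), and 0.21 to 0.54 without 1 library. That of the high genes was 0.15, 0.023 with high set by the value itself, 0.18 with classes set by the mean over all 8 libraries, and 0.13 to 0.18 without 1 library. Of 913 alternative values of single genes, 862 stayed on their side of the threshold, 28 were no longer past it, 23 passed it (16 of them with array weights), and 0 of the called genes changed sign, while 10 genes without a call did in 31 values. Genes under about 10 reads a library are limited by counting.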
